A study of Mus musculus with 16 samples.

Results

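Nucleotide synthesis was followed through 9 enzyme genes in leukaemic cells of mice fed 4 amounts of valine. The genes were chosen by symbol, and all 9 were found among the 12012 genes of the table. Each of 3 steps has 3 members: Cad, Dhodh and Umps build pyrimidines, Ppat, Gart and Impdh2 build purines, and Rrm1, Rrm2 and Tyms supply the deoxynucleotides of DNA. All 9 passed the filter on low values in both fractions.

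The cells came from C57BL/6 mice that had received secondary transplants of a T cell leukaemia (T-ALL, acute lymphoblastic leukaemia of T cells). NOTCH-ΔE, an activated Notch receptor, drove the leukaemia in every group, the controls included. The diets held 8 g/kg valine (control), 0.8, 0.4 or 0 g/kg according to the sample characteristics and were given for 3 weeks. The treatment text instead places the 0.8 and 0.4 supplements in drinking water, per litre. GFP-positive cells were sorted from spleen, and for each diet 2 samples, T-ALL 2 and T-ALL 3, were sequenced as total RNA and as RPF (ribosome-protected fragments, or footprints, which are pieces of mRNA inside ribosomes). It is not stated whether the numbers mark separate primary tumours or separate recipient mice, and an age of the mice is not given in the sources used here. Test results and p-values therefore measure only the spread between these samples, which may be technical. The question of the design, as far as the labels give it, is how valine supply changes mRNA and its ribosome occupancy.

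Pyrimidine synthesis starts with Cad, a single large protein that joins carbamoyl phosphate synthetase, aspartate transcarbamoylase and dihydroorotase. Dhodh, in the inner mitochondrial membrane, oxidises dihydroorotate and passes the electrons to ubiquinone, and Umps turns orotate into UMP. Purine synthesis starts with Ppat, the amidotransferase of the committed step. Gart carries several later steps on 1 polypeptide, and Impdh2 commits IMP to guanine nucleotides. Ribonucleotide reductase, made of the large subunit Rrm1 and the small subunit Rrm2, reduces ribonucleotides to deoxynucleotides, and thymidylate synthase (Tyms) makes dTMP. Rrm2 and Tyms are textbook S phase genes, and dividing T-ALL cells depend on these pathways, which antimetabolite drugs target.

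Values are FPKM, which scale reads by gene length and by library size, so levels can be set against each other per length. Recovered reads numbered 364685 to 1269364 per total RNA library and 41848 to 205545 per RPF library, so the footprint values are less precise. All 11 T lineage markers were in the table, at 48.9 to 75.0 of 10000 total RNA reads. The share of 11 neutrophil markers was 2.22 to 4.70 of 10000 total RNA reads at 0 g/kg against 0.165 to 0.173 at 8 g/kg, and 3.41 to 26.8 against 0.239 to 0.420 of 10000 RPF reads, where 10 and 9 of the 11 were at 0 in the controls. The share of 10 erythroid markers, 9 of them in the table, was 0.184 to 0.280 of 10000 total RNA reads at 0 g/kg against 1.68 to 4.12 at 8 g/kg. The 6 macrophage markers took 0.0548 to 0.213 of 10000 total RNA reads, and of 6 B cell markers 2 were in the table, with at most 0.0268. None of the markers tested passed, and the B cell markers fell below the filter in total RNA. At 0 g/kg all 11 neutrophil markers were higher in both fractions. By limma 10 in total RNA and 8 in RPF had an unadjusted p under 0.05, beside 6.58% and 7.17% of all genes. All 7 erythroid markers tested in total RNA were lower, 6 of them at this level. In bulk libraries fewer cells of a type and less RNA per cell cannot be told apart.

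On the GRCm38 assembly, Tyms (chr5:30038546-30073645), Cad (chr5:31054620-31078479) and Ppat (chr5:76913249-76951578) lie on chromosome 5. Umps (chr16:33954782-33967038) and Gart (chr16:91621395-91646972) lie on chromosome 16. The others are Rrm1 (chr7:102441695-102469771), Dhodh (chr8:109593244-109608699), Impdh2 (chr9:108560436-108565577) and Rrm2 (chr12:24708254-24714146).

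In total RNA the members ranged from among the most abundant mRNAs of these cells to the middle of the distribution. Impdh2 led with 251 ± 31.0 FPKM (SD, n = 8 libraries over all diets). Its lowest library, at 195 FPKM, lay above the highest library of every other member. Rrm2 (116 ± 18.3), Gart (96.8 ± 10.7) and Rrm1 (84.9 ± 10.5) followed, and their ranges overlapped.

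Cad had 71.0 ± 4.13 FPKM in total RNA and varied least, from 65.0 to 78.7 FPKM over the 8 libraries. Its coefficient of variation was 5.82%, close to the 5.18% that counting alone gives at its median of 372 reads. Tyms (36.8 ± 5.53), Umps (31.3 ± 4.78) and Ppat (25.7 ± 5.05) overlapped each other and lay below every Cad value. Dhodh was lowest at 7.01 ± 1.11 FPKM, which placed it at the 44.8th percentile of all genes, whereas Impdh2 stood at the 97.7th.

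The order was different among the footprints. Cad came first with 223 ± 57.4 FPKM (SD, n = 8 libraries), ahead of Gart at 165 ± 40.8, Rrm2 at 161 ± 48.2, Impdh2 at 127 ± 29.9 and Rrm1 at 113 ± 37.2. The ranges of these 5 genes overlapped. Tyms (34.0 ± 8.86), Umps (27.8 ± 14.7), Ppat (25.2 ± 13.1) and Dhodh (9.97 ± 3.95) again formed the lower part. Few reads stand behind the last 3, with 4 to 17 per library for Umps, 1 to 27 for Ppat and 1 to 9 for Dhodh.

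**Figure D1:**
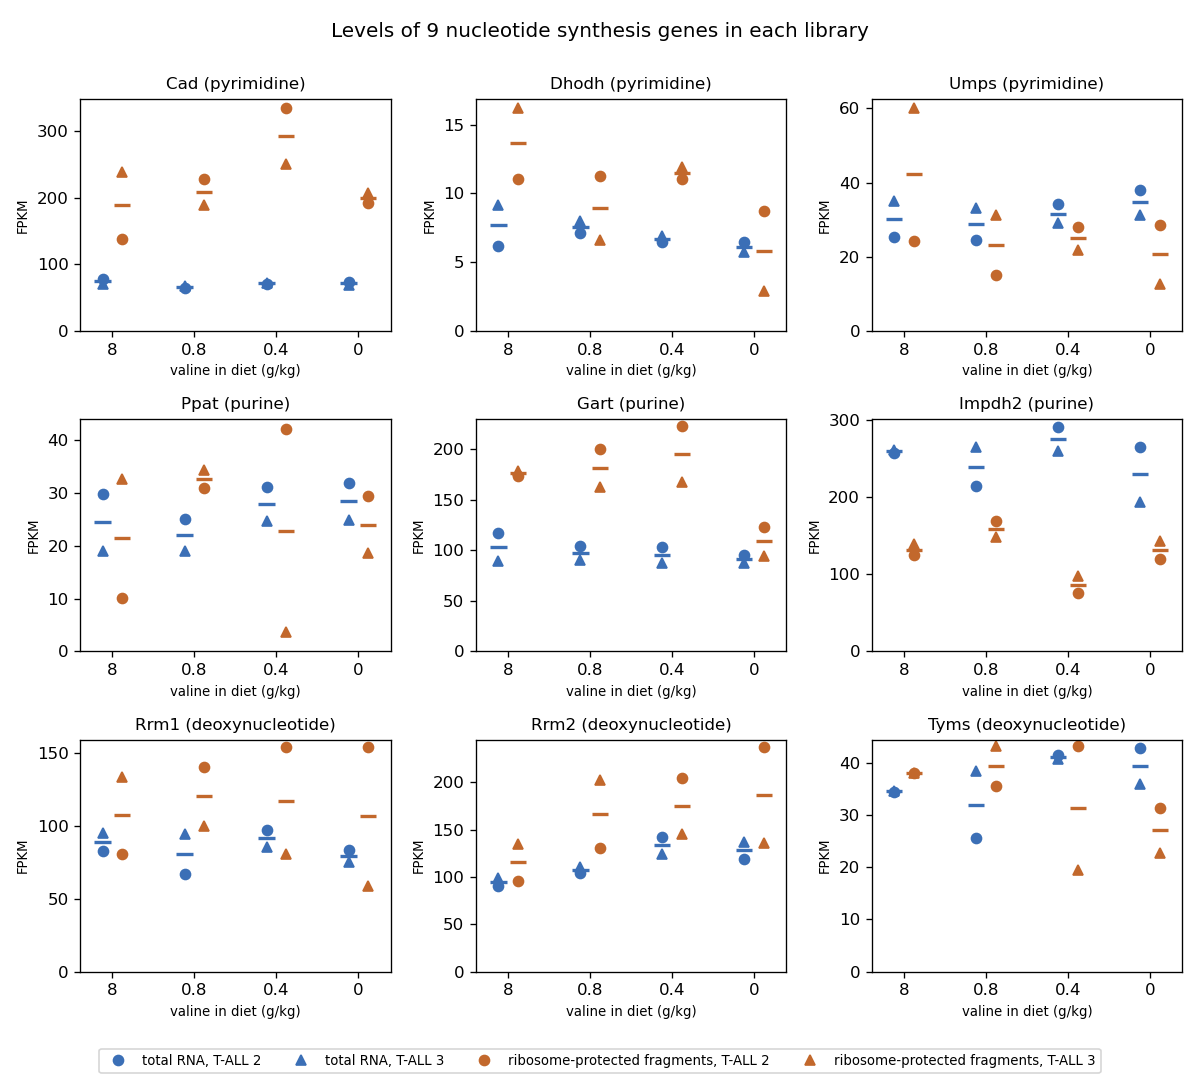
FPKM (vertical axes, linear, from 0) of the 9 genes against valine in the diet (g/kg), in total RNA (blue) and RPF (orange); circles are T-ALL 2, triangles T-ALL 3, and bars the mean of the 2 libraries. Cad and Gart lie higher in RPF than in total RNA in every pair of libraries, and Impdh2 lies lower in RPF throughout.

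The change of order was tested as the ratio of RPF to total RNA FPKM in each of the 8 pairs of libraries that match in diet and T-ALL number. The log2 ratio was centred on the median gene of its pair, and limma asked over 9361 genes whether the mean over the diets differed from 0. In this test 704 genes (7.52%) passed as higher and 337 (3.6%) as lower, with p-values adjusted by Benjamini-Hochberg at 0.05. Of the members, 3 passed as higher and 0 as lower. They belong to different steps: Cad, Gart and Rrm2.

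Cad carried the most footprints per mRNA of the 9. Its log2 ratio stood between 1.37 and 2.53 above the median gene in the 8 pairs, with a mean of 1.94 ± 0.16 (SE), or 3.84-fold (adjusted p = 0.00411 by limma). All 8 pairs lay above the median gene, and the mean was at the 99.7th percentile of all genes tested. Pooled over libraries, Cad took 17.7 of 10000 RPF reads (1407 reads) and 4.68 of 10000 total RNA reads (2974 reads).

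Gart had log2 ratios from 0.37 to 1.48 above the median gene, again in all 8 pairs. The mean was 1.07 ± 0.15 (SE), or 2.10-fold (adjusted p = 0.0105 by limma), at the 94.6th percentile. Its 2 lowest pairs were those of the valine-free diet, at 0.67 and 0.37. The calls of Cad and Gart held when any 1 pair was left out, with adjusted p up to 0.0387 for Cad and 0.0492 for Gart.

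Rrm2 stood 0.76 ± 0.19 (SE) above the median gene in log2 ratio, or 1.70-fold, with all 8 pairs between 0.25 and 1.31. Its adjusted p of 0.0488 by limma was near the threshold. The call was lost when any 1 of the 8 pairs was left out, where adjusted p ranged from 0.0612 to 0.162.

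The partner subunit Rrm1 had a mean log2 ratio of 0.67 ± 0.23 (SE, adjusted p = 0.102 by limma) and lay above the median gene in 7 of 8 pairs. Dhodh had 0.71 ± 0.22 (adjusted p = 0.0825 by limma) on 32 RPF reads in all. The ratios of Tyms (0.19 ± 0.20), Ppat (0.05 ± 0.39) and Umps (0.03 ± 0.23) lay near 0. These means stood at percentiles 68.8, 62.7 and 62.4 of all genes tested, so a mean of 0 over the pairs lies above the middle gene. Within the deoxynucleotide step both reductase subunits therefore had larger ratios than Tyms, and a difference between members was not tested.

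Impdh2 lay on the other side of the median gene from Cad, but less far from it. Its log2 ratio was below the median gene in all 8 pairs, from -1.66 to -0.18, with a mean of -0.67 ± 0.29 (SE), but it did not pass (adjusted p = 0.173 by limma). The mean stood at percentile 34.1 of all genes tested. Fitted with limma's voom on the recovered reads, Impdh2 passed as lower (-0.87, adjusted p = 0.000434) and Rrm1 as higher (0.50, adjusted p = 0.0227). That fit, chosen after the data were seen, called 2543 genes against 1041 in the fit above.

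The FPKM of both fractions use 1 length per gene, while footprints come mainly from the coding sequence. A ratio between genes thus also holds the coding share of each mRNA, which was not analysed here.

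**Figure D2:**
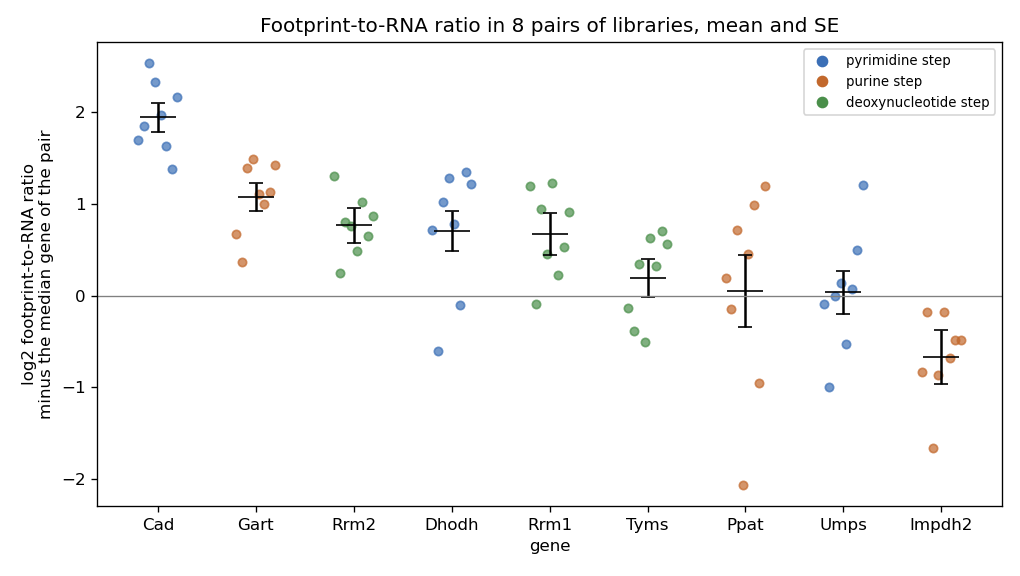
Log2 ratio of RPF to total RNA FPKM minus the median gene of the pair (vertical axis) for the 9 genes in 8 pairs of libraries; points are pairs, coloured by step, and black bars the mean ± SE of the fit. Cad and Gart lie above 0 in all pairs with means of 1.94 and 1.07, Rrm2 follows at 0.76, and Impdh2 lies below 0 in all pairs.

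RefSeq promoter windows of GRCm38.p6, from 250 bases before to 50 after a start, were matched for 8 of the 9 members. They are shown because Myc and the S phase programme are the textbook inputs of these genes, and Myc and Rrm2 mRNA are described with diet. The last 120 bases before the start are printed for the pair of reductase subunits and for the 2 members whose window held the hexamer CACGTG, the E-box bound by Myc and Max. Capitals mark CACGTG or CCAAT, the core of the CCAAT box bound by NF-Y.
Rrm2: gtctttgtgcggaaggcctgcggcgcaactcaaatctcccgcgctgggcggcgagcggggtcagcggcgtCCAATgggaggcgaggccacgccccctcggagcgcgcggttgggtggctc
Rrm1: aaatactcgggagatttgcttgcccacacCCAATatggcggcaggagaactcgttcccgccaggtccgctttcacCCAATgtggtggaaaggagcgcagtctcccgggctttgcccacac
Tyms: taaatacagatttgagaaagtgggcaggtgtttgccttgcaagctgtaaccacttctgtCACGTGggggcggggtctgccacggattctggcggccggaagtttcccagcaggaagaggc
Impdh2: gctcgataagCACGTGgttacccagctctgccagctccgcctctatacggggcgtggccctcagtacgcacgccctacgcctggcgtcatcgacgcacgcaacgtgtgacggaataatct
These stretches are chr12:24708134-24708253 (plus strand) for Rrm2, chr7:102441575-102441694 (plus) for Rrm1, chr5:30073626-30073745 (minus) for Tyms and chr9:108560316-108560435 (plus) for Impdh2.

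Both strands of every window were searched, and the letters are a description, not sites. CACGTG was found in 2 of the 8 member windows, at base -61 of Tyms and -110 of Impdh2, and in 7.15% of 32851 windows. CCAAT was found in 4 of 8, at -50 in Rrm2, at -91 and -45 in Rrm1, at -33 in Gart and 8 bases into Impdh2, and in 37.4% of all windows. TGACGTCA, the cAMP response element, was found in Umps at base 4 after the start and in 1.79% of windows. The E2F octamers TTTCGCGC and TTTGGCGC were found in 0 of the 8, and in 0.323% and 0.514% of all windows.

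Each low-valine diet was compared with 8 g/kg in total RNA, in RPF and in footprints per RNA (TE, the difference of the log2 values of a pair). All comparisons within a fraction use the same 2 control libraries. By limma with Benjamini-Hochberg adjustment, 0 of 10054 genes passed in total RNA, 0 of 9718 in RPF and 0 of 9361 in TE, on any diet (0% called), and thus 0 of the 9 members. At an unadjusted p under 0.05, 662, 311 and 347 genes stood out in total RNA at 0, 0.4 and 0.8 g/kg, and 697, 648 and 542 in RPF. With voom on the recovered reads, 3 genes passed in total RNA and 6 in RPF at 0 g/kg, none of them a member.

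The largest mRNA differences among the members were those of Rrm2. Its total RNA level was 90.5 and 99.2 FPKM at 8 g/kg, in T-ALL 2 and T-ALL 3, and 104 and 111 FPKM at 0.8 g/kg. It was 143 and 125 FPKM at 0.4 g/kg and 119 and 137 FPKM at 0 g/kg. All 6 low-valine libraries thus lay above both controls, and how many of all genes do so was not counted.

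The log2 difference of Rrm2 total RNA from 8 g/kg was 0.43 ± 0.15 (SE) at 0 g/kg, with a 95% confidence interval of 0.08 to 0.78 (unadjusted p = 0.0212, adjusted p = 0.654 by limma). At 0.4 g/kg it was 0.49 ± 0.15 (unadjusted p = 0.0113, adjusted p = 1 by limma), and at 0.8 g/kg 0.18 ± 0.15. Rrm2 was the only member with an unadjusted p under 0.05 in any of these limma comparisons, and it did not pass the correction over all genes. Its F test over the 4 diets gave an unadjusted p of 0.0377 and an adjusted p of 0.985 by limma.

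Rrm2 footprints were 96.1 and 135 FPKM at 8 g/kg, 130 and 203 at 0.8 g/kg, 204 and 145 at 0.4 g/kg and 238 and 136 at 0 g/kg, in T-ALL 2 and T-ALL 3. At 0 and 0.4 g/kg both libraries lay above both controls, although T-ALL 3 at 0 g/kg (136 FPKM) was level with T-ALL 3 of the control diet (135 FPKM). The log2 differences were 0.66 ± 0.42, 0.59 ± 0.42 and 0.51 ± 0.42 (SE) at 0, 0.4 and 0.8 g/kg, and TE at 0 g/kg was 0.23 ± 0.55. With 1 library left out, the RPF difference at 0 g/kg ran from 0.26 (without T-ALL 2 of that diet) to 1.06 (without T-ALL 3). At 0.4 g/kg it ran from 0.35 to 0.84 without the same T-ALLs of that diet, and at 0.8 g/kg from 0.19 (without T-ALL 3) to 0.83 (without T-ALL 2). The footprints of Rrm2 rest on 10 to 64 reads per library.

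Rrm1, which forms 1 enzyme with Rrm2, had 82.4 and 94.6 FPKM of total RNA at 8 g/kg and 83.2 and 75.3 at 0 g/kg, a log2 difference of -0.16 ± 0.20 (SE). At 0.4 g/kg it had 97.2 and 85.6 FPKM and at 0.8 g/kg 66.8 and 94.4. Its low-valine values overlapped the controls on every diet. Its footprints split by T-ALL number: at 0 g/kg T-ALL 2 had 154 and T-ALL 3 58.6 FPKM, against 80.9 and 133 at 8 g/kg. The RPF difference was -0.12 ± 0.57.

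Tyms had 34.5 and 34.7 FPKM of total RNA at 8 g/kg, 25.6 and 38.4 at 0.8 g/kg, 41.6 and 40.7 at 0.4 g/kg and 42.9 and 36.0 at 0 g/kg. Both libraries at 0 and 0.4 g/kg lay above both controls, with a log2 difference of 0.18 ± 0.23 (SE) at 0 g/kg. Its footprints lay on the other side at 0 g/kg, with 31.4 and 22.8 FPKM against 38.0 and 38.1, a log2 difference of -0.50 ± 0.52. The TE difference of Tyms at 0 g/kg was -0.68 ± 0.61 (adjusted p = 0.902 by limma), so the opposite signs of RNA and footprints were within error.

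Among the pyrimidine genes, Cad mRNA differed little between the diets. Its total RNA was 78.7 and 71.1 FPKM at 8 g/kg, 65.0 and 67.7 at 0.8 g/kg, 70.4 and 72.2 at 0.4 g/kg and 73.8 and 68.9 at 0 g/kg. The log2 difference at 0 g/kg was -0.07 ± 0.15 (SE), with a 95% confidence interval of -0.42 to 0.28. At 0.8 g/kg it was -0.17 ± 0.15, and both libraries lay below both controls.

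Cad footprints were 139 and 239 FPKM at 8 g/kg, 229 and 189 at 0.8 g/kg, 336 and 250 at 0.4 g/kg and 193 and 208 at 0 g/kg. The 2 controls differ from each other more than any other diet's pair, and the 0 g/kg values lie between them. At 0.4 g/kg both libraries lay above both controls, with a log2 difference of 0.67 ± 0.36 in RPF (SE, adjusted p = 0.806 by limma) and 0.74 ± 0.48 in TE (adjusted p = 0.846). The size varied most with the control left out: without T-ALL 2 of the control diet it was 0.28 in RPF and 0.28 in TE, and without T-ALL 3 of that diet 1.06 and 1.20. At 0 g/kg the differences were 0.14 ± 0.36 in RPF and 0.21 ± 0.48 in TE.

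Dhodh total RNA was 6.20 and 9.19 FPKM at 8 g/kg and 6.49 and 5.70 at 0 g/kg, a log2 difference of -0.29 ± 0.34 (SE), and -0.17 ± 0.34 at 0.4 g/kg. Its footprints were 11.1 and 16.2 FPKM at 8 g/kg and 8.75 and 2.91 at 0 g/kg, which are 2 and 5 reads against 3 and 1. The RPF difference of -1.31 was the lowest of any member, and its 95% confidence interval ran from -3.33 to 0.71. This depth does not resolve a change of that size.

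Umps total RNA was 25.4 and 34.9 FPKM at 8 g/kg, 24.5 and 33.2 at 0.8 g/kg, 34.3 and 29.0 at 0.4 g/kg and 38.1 and 31.1 at 0 g/kg, with a log2 difference of 0.21 ± 0.25 (SE) at 0 g/kg. The values of all 4 diets overlapped. Umps footprints were 24.2 and 60.2 FPKM at 8 g/kg and 28.7 and 12.7 at 0 g/kg, from 4 and 17 reads against 9 and 4. The RPF log2 differences were -0.98 ± 0.70, -0.62 ± 0.70 and -0.80 ± 0.70 at 0, 0.4 and 0.8 g/kg. In TE they were -1.19 ± 0.67 at 0 g/kg and -0.74 ± 0.67 at 0.8 g/kg, negative in both T-ALLs on each of these diets, with adjusted p = 0.858 and 0.922 by limma. Without T-ALL 3 of the control diet, which holds the 17 reads, the RPF difference at 0.4 g/kg was 0.03.

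Among the purine genes, Gart had its own lowest footprint values on the valine-free diet. Gart RPF was 174 and 179 FPKM at 8 g/kg, 201 and 162 at 0.8 g/kg, 223 and 168 at 0.4 g/kg and 123 and 94.3 at 0 g/kg. Both 0 g/kg libraries lay below the 6 others, which ranged from 162 to 223 FPKM. At 0 g/kg 28.4% of all genes in RPF did not overlap with the controls, in either direction. How many also split from all other diets was not counted. The log2 difference of Gart from 8 g/kg was -0.71 ± 0.32 (SE, unadjusted p = 0.0604, adjusted p = 0.734 by limma). Its 95% confidence interval ran from -1.46 to 0.04. The difference stayed negative in all 12 alternative settings, from -0.90 to -0.52. Leaving out 1 library could not turn the sign, since the groups do not overlap. Changing the filter or adding the block leaves the estimate as it is.

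Gart mRNA was closer between these diets, at 117 and 89.5 FPKM at 8 g/kg and 95.7 and 87.7 at 0 g/kg, a log2 difference of -0.16 ± 0.19 (SE). The TE difference was -0.55 ± 0.43 and negative in both T-ALLs (adjusted p = 0.894 by limma). The neutrophil marker reads given above were highest in these same libraries, and their part in the Gart values was not tested.

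Ppat total RNA was 29.9 and 19.0 FPKM at 8 g/kg, 25.1 and 19.0 at 0.8 g/kg, 31.2 and 24.7 at 0.4 g/kg and 31.9 and 24.9 at 0 g/kg, with T-ALL 2 above T-ALL 3 on every diet. The log2 difference at 0 g/kg was 0.24 ± 0.29 (SE). Its footprints ranged from 3.64 FPKM (1 read) to 42.1 FPKM (25 reads), both at 0.4 g/kg. The RPF differences of 0.35 ± 1.10 at 0 g/kg and 0.82 ± 1.10 at 0.8 g/kg have intervals several times their size.

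Impdh2 total RNA was 258 and 262 FPKM at 8 g/kg, 215 and 265 at 0.8 g/kg, 291 and 260 at 0.4 g/kg and 265 and 195 at 0 g/kg, with a log2 difference of -0.19 ± 0.18 (SE) at 0 g/kg. Its footprints were 125 and 139 FPKM at 8 g/kg, 169 and 149 at 0.8 g/kg, 75.4 and 97.8 at 0.4 g/kg and 119 and 143 at 0 g/kg. The 0.4 g/kg libraries were the 2 lowest of the 8. On that diet 28.6% of all genes in RPF did not overlap with the controls, and how many split from all other diets was not counted. The log2 difference of Impdh2 at 0.4 g/kg was -0.62 ± 0.32 (adjusted p = 0.796 by limma), against -0.01 ± 0.32 at 0 g/kg. The partial diet and not the valine-free one thus stood furthest from the control.

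**Figure D3:**
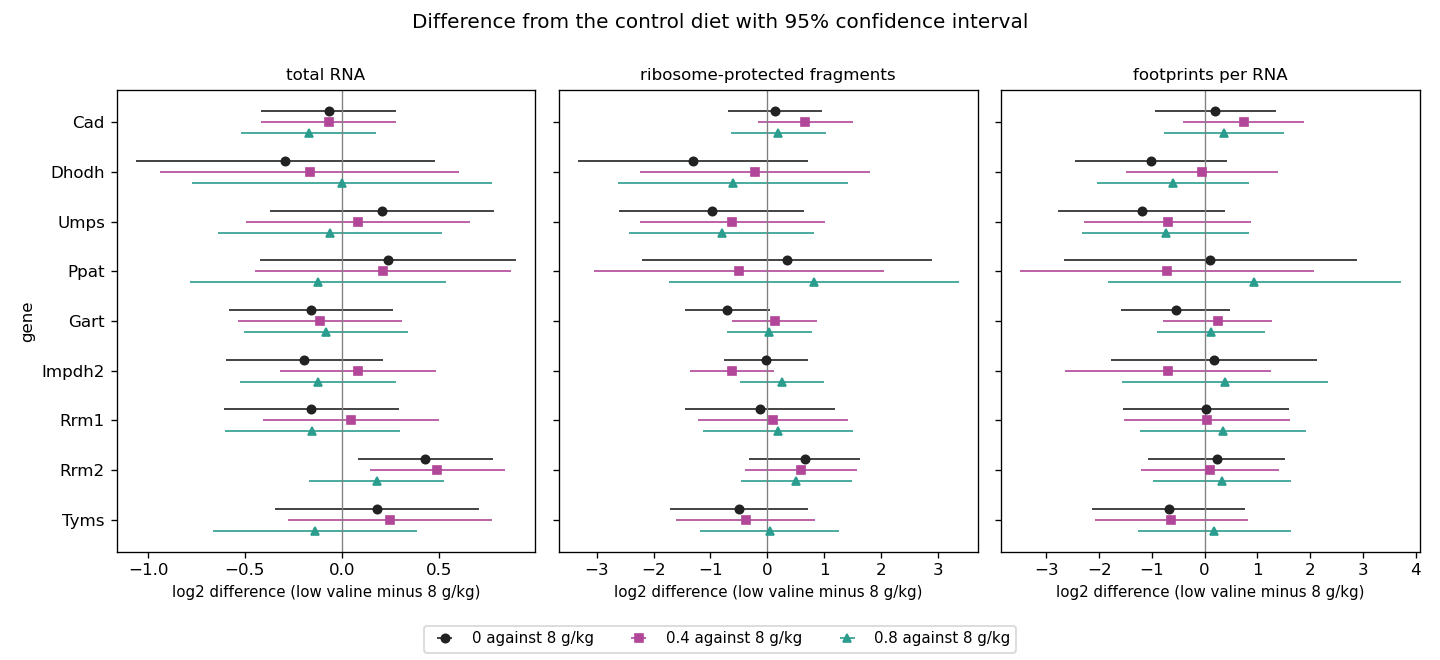
Log2 difference of each low-valine diet from 8 g/kg (horizontal axes, whose ranges differ between panels) for the 9 genes in total RNA, RPF and footprints per RNA; symbols give the diet and lines the 95% confidence interval of the limma fit. Only the Rrm2 intervals in total RNA at 0 and 0.4 g/kg leave out 0, and none of the differences passed the adjusted test.

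Counted over the set, 2 of 9 members did not overlap with the controls in total RNA at 0, at 0.4 and at 0.8 g/kg, where 36.3%, 37.4% and 31.6% of all genes did not overlap. In RPF the counts were 4, 3 and 1 of 9, beside 28.4%, 28.6% and 31.3% of all genes. The median log2 difference of the members in total RNA was -0.07, 0.08 and -0.12 at 0, 0.4 and 0.8 g/kg, beside -0.04, -0.01 and -0.03 over all genes. In RPF it was -0.12, -0.22 and 0.19, beside 0.12, 0.08 and 0.30 over all genes, and in TE 0.03, -0.05 and 0.33, beside 0.20, 0.14 and 0.36.

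By direction, 4 members were higher and 5 lower in total RNA at 0 g/kg, 6 higher and 3 lower at 0.4 g/kg, and 2 higher and 7 lower at 0.8 g/kg. In RPF 3, 4 and 7 of the 9 were higher at 0, 0.4 and 0.8 g/kg. Only 3 were higher and 2 lower in both T-ALLs in total RNA at 0 g/kg. The members thus stood close to all genes in mRNA and had no common direction.

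Reads were also summed by step. The 3 pyrimidine genes took 6.15 ± 0.18 of 10000 total RNA reads without valine (SD, n = 2 libraries), beside 6.06 ± 0.00238 on the control diet. Their libraries had 5.85 and 5.88 at 0.4 g/kg, and 5.32 and 5.68 on the diet with 0.8 g/kg. The purine genes took 8.17 ± 0.95, 8.75 ± 0.84, 8.01 ± 0.0041 and 8.59 ± 0.78 from the lowest valine content to the highest, and the deoxynucleotide genes 8.19 ± 0.11, 8.67 ± 0.61, 7.30 ± 1.27 and 7.50 ± 0.62. The deoxynucleotide share of reads exceeded both controls (7.06 and 7.94) at 0 g/kg (8.12 and 8.27) and 0.4 g/kg (9.10 and 8.23). At 0.8 g/kg it was 6.40 in T-ALL 2, the lowest of all libraries, and 8.20 in T-ALL 3, above both controls. The Wilson intervals of 8.12 (7.48 to 8.81) and 7.94 (7.36 to 8.57) overlapped. As shares of summed FPKM, which take out gene length, the deoxynucleotide genes had 4.40, 4.36, 3.62 and 3.57 of 10000 at 0, 0.4, 0.8 and 8 g/kg.

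Among footprints the pyrimidine step took the most reads, 17.2 ± 0.45 of 10000 at 0 g/kg and 17.5 ± 6.88 at 8 g/kg, nearly all of them from Cad. Its share was 23.6 ± 2.98 at 0.4 g/kg. This order turned when FPKM were summed, which takes out the length of Cad. Of 10000 summed RPF FPKM at 0 g/kg the pyrimidine step had 5.87, below the purine step at 6.83 and the deoxynucleotide step at 8.23. At 8 g/kg the same shares were 5.83, 7.85 and 6.21. The purine share of reads was 8.21 ± 0.71 at 0 g/kg and 10.8 ± 1.12 at 8 g/kg, and both 0 g/kg libraries (8.71 and 7.71) lay below all others (8.88 to 11.7). The Wilson intervals of 8.71 (6.90 to 11.0) and 8.88 (6.78 to 11.6) overlapped. In summed FPKM the purine shares at 0 g/kg were 6.86 and 6.79, and T-ALL 3 at 0.4 g/kg was lower at 6.46. The deoxynucleotide share of reads at 0 g/kg was 16.7 in T-ALL 2 and 8.09 in T-ALL 3, a wider gap than on any other diet.

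All 9 genes together accounted for 22.5 ± 1.03 of 10000 total RNA reads at 0 g/kg, against 22.2 ± 0.16 at 8 g/kg. They took 37.8 ± 6.33 and 39.5 ± 11.0 of 10000 RPF reads. No test was made of these sums, and intervals on them cover counting error only.

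**Figure D4:**
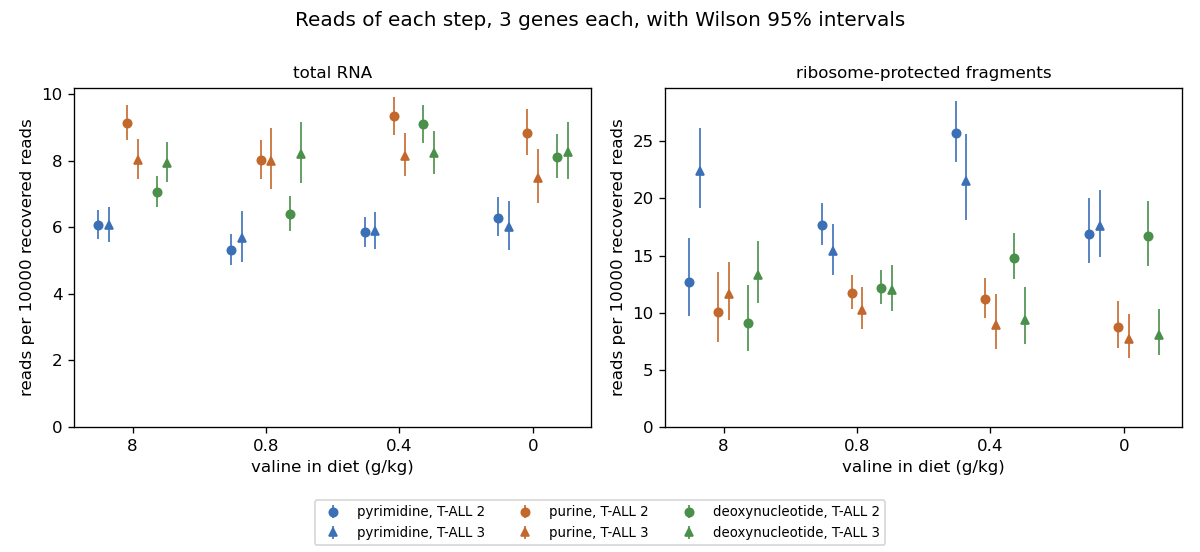
Reads of the 3 genes of each step per 10000 recovered reads (vertical axes, from 0, with different ranges) against valine in the diet (g/kg), in total RNA and RPF; circles are T-ALL 2, triangles T-ALL 3, and lines the Wilson 95% interval of counting error. Pyrimidine genes take the fewest of the total RNA reads (5.32 to 6.29) and the most of the RPF reads (12.7 to 25.7) in all 8 library pairs. Reads weight long genes such as Cad. By mean share of summed FPKM the pyrimidine step was the lowest in RPF at 0, 0.8 and 8 g/kg but the highest at 0.4 g/kg.

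The members did not vary as a block over the libraries. Over the 8 total RNA libraries the 36 pairs of members had a median Pearson r of 0.23, from -0.78 (Dhodh and Ppat) to 0.82 (Impdh2 and Rrm1). Over the 8 RPF libraries the median was 0.26, from -0.55 to 0.80. Pairs of the same step had a median r of 0.16 in total RNA and 0.19 in RPF, below the 0.27 and 0.34 of pairs from different steps. These values are a description, since the libraries share diets, T-ALL numbers and depth.

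Patterns over the 16 libraries were compared after the log2 values of each gene were centred on its mean within each fraction. The non-member genes whose pattern was most like the mean of a step were taken from 4581 genes with at least 10 FPKM in both fractions. For pyrimidine synthesis these were Msh6 (r = 0.90), Nme1 (0.88) and Ptges3 (0.87). For purine synthesis they were Taldo1 (0.92), Psmd1 (0.91) and Eif2s3x (0.91), and for deoxynucleotide synthesis Diaph3 (0.87), Atic (0.86) and Mcm7 (0.86). Nme1 is a nucleoside diphosphate kinase, Taldo1 an enzyme of the pentose phosphate pathway, Atic makes the last steps to IMP and Mcm7 is a subunit of the replicative helicase. Msh6, Ptges3, Taldo1, Psmd1, Eif2s3x and Diaph3 are on none of the pathway or S phase lists used here. The median r over all 4581 genes was 0.00, 0.13 and 0.11. The named genes were picked for the highest r, so the matches are a description, and shared regulation was not tested.

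Myc mRNA, whose protein is a textbook activator of these genes, was 272 and 262 FPKM at 8 g/kg, 230 and 201 at 0.8 g/kg, 221 and 183 at 0.4 g/kg and 167 and 143 at 0 g/kg. Each low-valine pair lay below both controls, and the 0 g/kg pair was the lowest. Of all genes 36.3%, 37.4% and 31.6% did not overlap with the controls in total RNA at 0, 0.4 and 0.8 g/kg. The log2 differences of Myc mRNA there were -0.78, -0.41 and -0.31, each ± 0.15 (SE). None passed (adjusted p = 0.267 by limma at 0 g/kg). Myc footprints were 362 and 351 FPKM at 8 g/kg and 316 and 259 at 0 g/kg, a log2 difference of -0.32 ± 0.33. Tyms and Impdh2, the members with a CACGTG, had log2 mRNA differences of 0.18 and -0.19 on that diet. E2f1, a transcription factor of S phase genes, had 23.8 and 22.6 FPKM of total RNA at 8 g/kg and 28.6 and 22.7 at 0 g/kg.

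The 10 S phase genes examined, 6 of them Mcm helicase subunits, amounted to 44.1 to 48.0 of 10000 total RNA reads at 0 g/kg, against 38.5 to 39.9 at 8 g/kg. They took 44.5 and 39.4 on the 0.4 g/kg diet, and 34.5 and 41.0 on that with 0.8 g/kg, in T-ALL 2 and T-ALL 3. The S phase share thus lay between the controls in T-ALL 3 at 0.4 g/kg, below both in T-ALL 2 at 0.8 g/kg, and above both in the other low-valine libraries. A relation of this share to Rrm2 was not tested. The 8 genes of mitosis took 5.73 to 7.96 at 0 g/kg and 7.86 to 9.83 at 8 g/kg. At 0.4 g/kg they took 10.7 and 10.9, above both controls, and at 0.8 g/kg 8.55 and 12.7, in T-ALL 2 and T-ALL 3. The part of cell cycle phase, of neutrophil RNA or of depth in the Rrm2 values was not tested.

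The other genes of these pathways were taken from lists and gave 0 calls in either direction in every comparison. Of 8 other pyrimidine genes 3 were higher and 5 lower in total RNA at 0 g/kg, with a median log2 difference of -0.09. In RPF all 8 were lower, with a median of -0.82 beside 0.12 over all genes, of which 54.7% were higher. The SE reached 1.57 (Uckl1). TE uses the same footprints, and there all 8 were lower, with a median of -0.55 beside 0.20 over all genes, of which 57.5% were higher. The lowest p among the 8 in RPF was that of Ctps, CTP synthetase, a gene chosen after its values were seen, at -1.59 ± 0.54 (SE, unadjusted p = 0.0194, adjusted p = 0.599 by limma). In total RNA the list's named genes were the uridine-cytidine kinases Uckl1 at 0.33 ± 0.28 and Uck1 at -0.63 ± 0.40.

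Of 15 other purine genes 4 were higher and 11 lower in total RNA at 0 g/kg, with a median of -0.17. Adss, which turns IMP towards AMP, had 56.8 and 49.6 FPKM at 0 g/kg against 67.2 and 75.7 at 8 g/kg (-0.42 ± 0.18, adjusted p = 0.725 by limma). In RPF 8 were higher and 7 lower.

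Of 10 other deoxynucleotide genes 8 were higher and 2 lower in total RNA at 0 g/kg, with a median of 0.17. Dctd, the dCMP deaminase that supplies Tyms with dUMP, had 4.34 and 5.80 FPKM at 0 g/kg against 0.702 and 2.08 at 8 g/kg (1.65 ± 0.66, adjusted p = 0.702 by limma). The mitochondrial thymidine kinase Tk2 had 4.50 and 2.01 against 6.92 and 5.40 FPKM (-0.90 ± 0.47, adjusted p = 0.823 by limma).

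The 5 genes of one-carbon supply, which feeds formyl groups to Gart and methylene groups to Tyms, were all higher in total RNA at 0 and at 0.4 g/kg, with medians of 0.40 and 0.31. Mthfd2 had 81.5 and 101 FPKM at 0 g/kg against 34.8 and 37.9 at 8 g/kg (1.31 ± 0.25, adjusted p = 0.267 by limma). In RPF 4 of the 5 were higher on both diets. None of these genes passed, and the differences of Gart and Tyms beside them were -0.16 and 0.18 in total RNA.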

How the data were processed

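The deposited table gives FPKM per gene for 16 libraries, with replicates kept apart, per the file headers. Tools listed in the submitters' processing notes are STAR 2.5.0c, Bowtie2 2.3.4, edgeR 3.14.0 and cutadapt 1.18, with builds mm10 and GRCm38, and the role of each is not given in the sources used here. Values above 0 were whole multiples of 1 read per gene length, and 100% of 149988 gave whole reads within 0.02 reads. Recovery took for each gene the largest step that met this limit, so that share is no separate check. A gene above 0 in only 1 library counts as 1 read. These recovered reads gave depth, shares with 95% Wilson intervals and voom fits.

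limma 3.58.1 (R 4.3.3) fitted log2(FPKM + 0.5) on diet, a factor of 4 levels, over the 8 libraries of a fraction, with a variance trend, for genes with a mean of at least 1 FPKM. All tests were two-sided. Adjustment was by Benjamini-Hochberg over all genes tested, with a threshold of 0.05. A log2 difference on this scale understates the change of low genes. SE come from the moderated variance of all 8 libraries. TE was fitted alike for genes that passed in both fractions. PCR copies are not separate molecules, so the intervals cover counting error only.

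The named genes were the 9 members, Myc and E2f1, and from each pathway list the gene per direction with the smallest unadjusted p in total RNA at 0 against 8 g/kg. Members and lists were chosen with earlier results of these data known. Gene positions and promoter windows come from RefSeq tables of GRCm38.p6, matched by symbol. Alternatives were 2 other pseudocounts, no filter or a mean of at least 5 FPKM, the T-ALL number as a block, equal library medians, voom with TMM on recovered reads, fits of 2 diets alone, shares of FPKM, and each library left out. A gene that the naming rule picked is not reported here.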

Additional observations from a re-analysis of the deposited data

How the results depend on the processing

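Of 81 differences of members from the control diet, 34 kept their direction in all 12 alternative settings, and 0 passed the test in any. The settings are not 12 separate checks of direction. The filter, the block and the fits of 2 diets leave a log2 difference as it is. Leaving out 1 library cannot turn it where the groups do not overlap. Libraries of 2 diets with the same T-ALL number had correlations of their deviations from -0.04 to 0.25 in total RNA (median 0.11). In RPF these ran from -0.02 to 0.07 (median 0.03). Counting noise lowers such values, so they do not settle whether the T-ALL number pairs the libraries. With that number as a replicate block, 0 genes passed in every comparison, as without it. Without the filter on low values 47, 18 and 64 genes passed in RPF at 0, 0.4 and 0.8 g/kg and 98 in the F test, and with voom 6 at 0 g/kg and 6 in the F test. In total RNA voom called 3 genes at 0 g/kg and 2 in the F test. Leaving out 1 library gave 0 to 2 genes at 0 g/kg, 0 to 28 at 0.8 g/kg and 0 to 8 in the F test, where 28 and 8 arose without T-ALL 2 at 0.8 g/kg. The ratio of footprints to RNA called 1041 genes, 222 to 440 without 1 pair and 2543 with voom. The cause was not tested.

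Directions turned as follows when 1 library was left out. In total RNA at 0 g/kg the log2 differences ran from -0.14 to 0.0032 for Cad, -0.0202 to 0.435 for Umps, -0.0806 to 0.56 for Ppat, -0.36 to 0.034 for Gart and -0.42 to 0.0293 for Impdh2, and at 0.4 g/kg from -0.43 to 0.10 for Dhodh. In RPF they ran from -0.25 to 0.53 for Cad, -0.47 to 1.17 for Ppat, -0.14 to 0.11 for Impdh2 and -0.82 to 0.57 for Rrm1 at 0 g/kg, from -1.27 to 0.0305 for Umps at 0.4 g/kg, and from -0.0021 to 1.64 for Ppat at 0.8 g/kg. In TE at 0 g/kg they ran from -0.26 to 0.67 for Cad, -1.03 to 1.25 for Ppat, -0.17 to 0.53 for Impdh2, -0.59 to 0.65 for Rrm1 and -0.28 to 0.73 for Rrm2. TE of Ppat ran from -2.23 to 0.80 at 0.4 g/kg and from -0.20 to 2.08 at 0.8 g/kg. The ratio to the median gene ran from -0.0864 to 0.14 for Umps and -0.31 to 0.39 for Ppat. Among differences that kept their direction, TE at 0 g/kg ran from -1.62 to -0.76 for Umps and from -0.76 to -0.33 for Gart, and Impdh2 in RPF at 0.4 g/kg from -0.80 to -0.43. With equal library medians Cad in RPF was -0.0177, and TE at 0 g/kg was -0.0964 for Ppat, -0.0257 for Impdh2 and -0.17 for Rrm1. With voom Impdh2 in RPF was 0.0107, TE at 0 g/kg was -0.029 for Ppat and -0.0294 for Rrm1, and the Umps ratio was -0.15. With a mean of at least 5 FPKM the ratios of Umps and Ppat were -0.0679 and -0.0567. Summing FPKM in place of reads removes the weight of long genes such as Cad. It put the mean of the pyrimidine step at 5.87 of 10000 RPF FPKM at 0 g/kg, below the purine step at 6.83 and the deoxynucleotide step at 8.23. At 0.4 g/kg the pyrimidine mean of 7.86 stayed above the 7.28 and 7.70 of these steps.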

Other observations

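Depth limits the footprint values of Dhodh, Umps, Ppat and Tyms most. At their median reads per RPF library, counting alone gives a coefficient of variation of 57.7% for Dhodh, 31.6% for Umps, 30.2% for Ppat and 29.5% for Tyms, against 8.57% for Cad. With 2 libraries per diet an exact permutation test cannot give a p below 0.333.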
